A study of Homo sapiens with 32 samples.

Results

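The response of polysome-bound mRNA to hypoxia was examined in MDA-MB-231, an established triple-negative breast cancer cell line. The comparison used 4 of the 32 libraries of the study, chosen by their labels alone. They were the polysomal mRNA of cells kept for 24 h at 0.5% O2 (hypoxia, H, 2 biological replicates) and of cells kept in normoxia (N, 2 biological replicates), none of them treated with an inhibitor. All of these cells were grown in DMEM with foetal bovine serum, and lysates were separated on sucrose gradients in the presence of cycloheximide, from which light and heavy polysomes were isolated. The line is 1 tumour-derived culture, so that the replicates are repeated cultures of the same cells. Given beside it for reference are the total mRNA of the same line under N and H (2 each), its polysomal mRNA after 3 h of 2.5 µM PP242, an inhibitor of the mTOR kinase, in normoxia (NPP) or hypoxia (HPP) (2 each), and polysomal mRNA of MCF10A, a non-tumourigenic breast epithelial line, under N and H (2 each).

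Cells sense oxygen through prolyl hydroxylases (the EGLN proteins), which mark the HIF alpha subunits for destruction by the VHL ubiquitin ligase while oxygen is present. When oxygen falls, the HIF alpha subunits persist, pair with ARNT and bind short hypoxia response elements in the promoters and enhancers of genes for glucose uptake, glycolysis, angiogenesis, matrix remodelling and the control of HIF itself. Hypoxia also restrains mTORC1, which governs the translation of mRNAs that start with a terminal oligopyrimidine (TOP) tract, chiefly those of the ribosomal proteins. An mRNA that several ribosomes translate at once sediments as a polysome, so that its share in the polysomal fraction depends on both its abundance and its loading with ribosomes.

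The 4 libraries held 24478793 (N replicate 1), 32479393 (N replicate 2), 28771179 (H replicate 1) and 31183417 (H replicate 2) expected counts. Their log2 CPM values were alike, with Pearson coefficients across genes from 0.979 to 0.986 between any pair, and replicates of a group were barely closer to each other (0.986 and 0.985) than to the other group. Marker genes of the line were looked at first. VIM, the mesenchymal intermediate filament, was listed at 3574 to 4207 CPM (before TMM scaling, as all values of this marker check) in the 4 libraries, whereas the basal keratins KRT5 and KRT6A had no count in any of them, which allows up to 0.124 CPM in the smallest library. CDH1 stayed at 0.371 CPM or less and the oestrogen receptor ESR1 at 0.176 CPM or less, whereas ERBB2 was detected at 29.8 to 36.8 CPM. In MCF10A polysomes KRT5 stood at 1285 to 2528 CPM, and the 10 basal markers summed to between 2358 and 7356 CPM against 19.0 to 34.99 CPM in MDA-MB-231. Not every marker separated the lines in that way. VIM was about as high in MCF10A, at 2552 to 3911 CPM, CDH1 stood there at 0.139 CPM or less, and the basal keratin KRT15 was lower in MCF10A (1.3 to 5.58 CPM) than in MDA-MB-231 (6.07 to 8.04 CPM). TGFBI, from the mesenchymal list, was at 30.0 to 44.3 CPM in MDA-MB-231 against 7033 to 16377 CPM in MCF10A, whereas the other mesenchymal markers ZEB1, CD44, AXL and MSN were higher in each MDA-MB-231 library. Leukocyte and endothelial markers (6 genes) summed to between 2.05 and 5.16 CPM, with CD3E at 0.

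The labels were checked with CA9. This gene encodes carbonic anhydrase 9, a membrane enzyme that handles acid and a classical HIF target. It was measured at 0.653 and 0.258 CPM in the normoxic libraries and 28.7 and 14.4 CPM in the hypoxic libraries. In total mRNA it stood at 0.574 and 0.0568 CPM under N and at 19.2 and 13.03 CPM under H, so that each hypoxic library lay above each normoxic one in both fractions. HIF1A, which encodes the main HIF alpha subunit and whose fall is a result and no check of the labels, went from 201 and 202 CPM to 61.4 and 55.2 CPM in polysomes. The HPP libraries held 34.6 and 19.8 CPM of CA9 and 68.4 and 82.4 CPM of HIF1A. No library went against its label by CA9.

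Hypoxia changed 310 protein-coding mRNAs in the polysomes of MDA-MB-231, and more of them rose than fell. Of 13510 genes tested with the edgeR quasi-likelihood test at a Benjamini-Hochberg adjusted p under 0.05, 2.29% were called, 241 of them upregulated (1.78%) and 69 downregulated (0.511%). The upregulated genes had a median log2FC of 1.03, and 130 of them rose at least 2-fold and 29 at least 4-fold. The downregulated genes had a median log2FC of -0.73, with 15 at least 2-fold lower and 0 at least 4-fold lower. The median log2FC of all genes tested was 0.0055. The scaling of the libraries sets the bulk of genes near 0, so that a change in polysome loading common to most mRNAs cannot be seen. None of the called genes had overlapping groups, and a complete separation was shown upwards by 22.6% of all genes tested and downwards by 20.5%. An unadjusted p under 0.05 was reached by 2327 genes. The number of calls depended on every library. Without N replicate 1, 116 genes were called up and 14 down. Without N replicate 2, these counts were 51 and 18. Without H replicate 1 they were 234 and 27, and without H replicate 2 they were 115 and 11. The balance of increases and decreases depended on the fit as well, with 296 up and 270 down after a smooth correction for transcript length in each library and 393 and 259 with DESeq2. With the replicate number as a block 450 genes were called up and 161 down. No filter beyond 1 read gave 675 and 147, and only the 4 polysomal libraries gave 144 and 18.

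The 12 largest increases had log2FC values of at least 2.56, and 5 of the 12 genes are in the list of established hypoxia-induced genes described further on. PPFIA4, which encodes a liprin scaffold protein, was close to absent in normoxic polysomes and was measured at 0.218 and 0.291 CPM in the normoxic libraries and 7.01 and 10.2 CPM in the hypoxic libraries (log2FC 5.04 ± 0.39 (SE), adjusted p = 7.59e-06). CA9 had the largest fold change among genes of at least 1 CPM (log2FC 5.62 ± 0.64 (SE), adjusted p = 2.57e-04), although H replicate 1 stood well above H replicate 2. NDRG1, a stress-response gene linked to differentiation, was measured at 70.99 and 70.1 CPM in the normoxic libraries and 1084 and 810.3 CPM in the hypoxic libraries (log2FC 3.75 ± 0.2 (SE), adjusted p = 2.46e-07). Its normoxic replicates were almost identical, and both hypoxic libraries lay far above them. BNIP3, a receptor that tags mitochondria for autophagy, was measured at 172 and 136 CPM in the normoxic libraries and 1036 and 1035 CPM in the hypoxic libraries (log2FC 2.75 ± 0.17 (SE), adjusted p = 5.28e-07). ANKRD37, a small ankyrin repeat protein, was measured at 6.05 and 4.36 CPM in the normoxic libraries and 34.6 and 33.4 CPM in the hypoxic libraries (log2FC 2.71 ± 0.2 (SE), adjusted p = 5.18e-06). ANGPTL4, a secreted inhibitor of lipoprotein lipase, was measured at 12.7 and 10.3 CPM in the normoxic libraries and 73.2 and 67.5 CPM in the hypoxic libraries (log2FC 2.62 ± 0.25 (SE), adjusted p = 4.87e-05). The remaining 6 of the 12 largest increases were ALDOC (2.87), the axonemal dynein DNAH11 (2.85), the nuclear envelope protein SPAG4 (2.67), the nuclear receptor RORA (2.56), TMEM45A (2.56) and the N-acetylaspartylglutamate synthetase RIMKLA (2.56), all as log2FC in polysomes. Of the 12 genes, 11 stayed past the threshold in each of the 17 other fits of the polysomal comparison, and ALDOC was lost in 1, without N replicate 2.

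**Figure D1:**
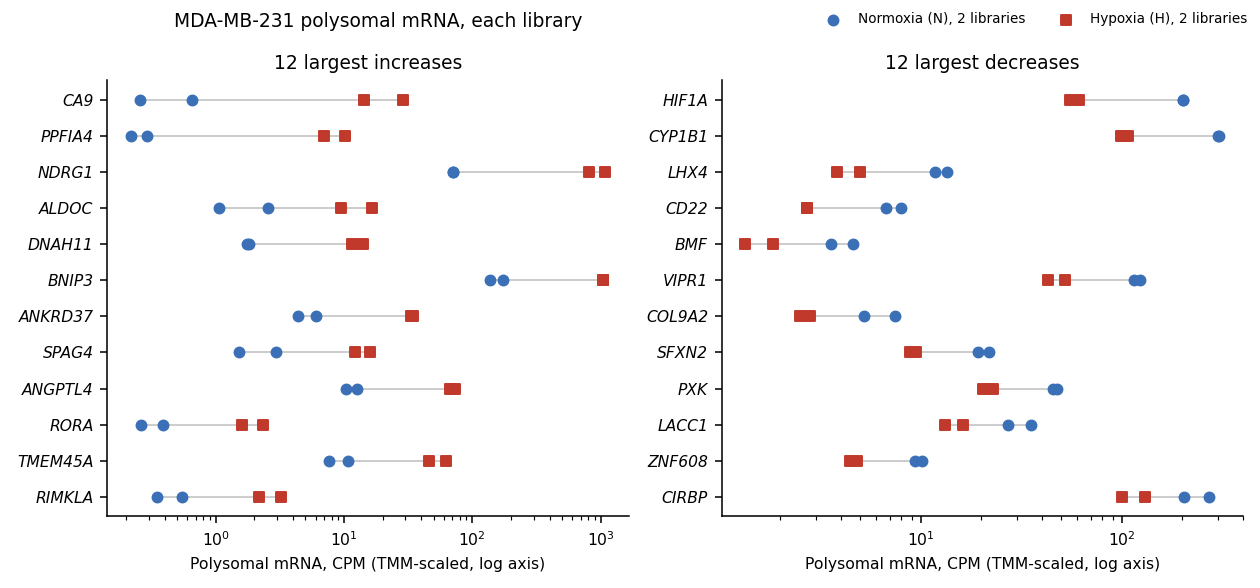
Polysomal CPM (TMM-scaled, log axis) of the 12 called genes with the largest increase and the 12 with the largest decrease. Each point is 1 library (circles normoxia, squares hypoxia). Only genes whose 2 groups did not overlap were eligible. HIF1A lies near 200 CPM under normoxia and near 60 CPM under hypoxia.

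The sequence upstream of these genes was read from RefSeq (GRCh38.p14) to show the letters that HIF is known to bind. The core of the hypoxia response element is ACGTG or GCGTG, searched here on both strands (CACGT or CACGC on the reverse strand). ACGTG and CACGT overlap wherever the palindrome CACGTG occurs, which is also the letter sequence of an E-box. The 250 bases before the start site are printed 5′ to 3′ on the strand of the gene, with the matches in capitals, for CA9 (chr9:35673678-35673927, plus strand), PPFIA4 (chr1:203026241-203026490, plus strand), BNIP3 (chr10:131981924-131982173, minus strand), ANKRD37 (chr4:185396591-185396840, plus strand) and, as the largest decrease, HIF1A (chr14:61695263-61695512, plus strand).
CA9: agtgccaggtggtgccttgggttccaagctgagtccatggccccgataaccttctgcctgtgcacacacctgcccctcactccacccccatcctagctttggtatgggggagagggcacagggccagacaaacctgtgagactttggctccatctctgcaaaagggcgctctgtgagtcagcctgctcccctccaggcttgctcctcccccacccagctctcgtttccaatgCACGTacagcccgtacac
PPFIA4: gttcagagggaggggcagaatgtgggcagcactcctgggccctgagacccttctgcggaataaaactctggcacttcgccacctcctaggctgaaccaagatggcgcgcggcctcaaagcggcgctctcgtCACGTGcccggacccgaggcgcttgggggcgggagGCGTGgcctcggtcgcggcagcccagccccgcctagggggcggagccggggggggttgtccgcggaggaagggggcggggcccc
BNIP3: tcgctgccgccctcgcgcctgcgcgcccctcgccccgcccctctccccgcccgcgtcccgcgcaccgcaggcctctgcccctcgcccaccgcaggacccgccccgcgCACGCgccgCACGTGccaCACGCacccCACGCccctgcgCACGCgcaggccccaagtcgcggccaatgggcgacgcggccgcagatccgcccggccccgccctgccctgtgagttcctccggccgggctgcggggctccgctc
ANKRD37: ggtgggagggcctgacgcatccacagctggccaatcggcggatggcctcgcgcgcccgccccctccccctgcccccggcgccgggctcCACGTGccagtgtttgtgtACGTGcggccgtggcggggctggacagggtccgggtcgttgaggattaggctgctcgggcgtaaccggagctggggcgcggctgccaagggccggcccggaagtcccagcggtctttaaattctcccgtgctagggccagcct
HIF1A: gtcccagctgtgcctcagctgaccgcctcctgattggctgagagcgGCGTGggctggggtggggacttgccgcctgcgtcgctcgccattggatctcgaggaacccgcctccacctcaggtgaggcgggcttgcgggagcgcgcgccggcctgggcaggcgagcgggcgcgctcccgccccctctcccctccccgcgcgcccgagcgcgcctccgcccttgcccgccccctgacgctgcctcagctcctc
The CA9 promoter held 1 match, which began 18 bases before the start site, and those of PPFIA4, BNIP3 and ANKRD37 held 3, 6 and 3 match positions. The promoter of the downregulated HIF1A also held 1, at 204 bases. Of the 12 largest increases, 10 had a promoter entry and 8 of these held a match, whereas RORA and TMEM45A held 0. Of the 12 largest decreases, 11 had an entry and 8 of these held a match. Such letters were common. A promoter entry was found for 10844 of the 13510 genes tested, and 56.9% of these windows held at least 1 match. The share was 60% among the 200 upregulated genes with an entry and 66.7% among the 57 downregulated ones. For ACGTG alone on either strand it was 23.2% of all genes tested, 28.5% of the upregulated and 28.1% of the downregulated. Among the 12 largest increases it was 70% of the 10 with an entry, and among the 12 largest decreases 18.2% of the 11. A match is a run of letters and says nothing of whether HIF binds there.

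Glycolysis and related steps held 13 of the 241 upregulated genes. Of the 28 genes tested for glucose uptake, glycolysis and glycogen, 13 rose and 0 fell, against 1.78% and 0.511% of all genes, and 26 had a log2FC above 0. Their median was 0.63 in polysomes and 0.8 in total mRNA. ALDOC, an aldolase isoform, was measured at 2.57 and 1.07 CPM in the normoxic libraries and 16.5 and 9.45 CPM in the hypoxic libraries (log2FC 2.87 ± 0.43 (SE), adjusted p = 0.0028). PFKFB4, whose product makes the allosteric activator of phosphofructokinase, was measured at 5.36 and 8.62 CPM in the normoxic libraries and 36.97 and 36.9 CPM in the hypoxic libraries (log2FC 2.39 ± 0.22 (SE), adjusted p = 3.80e-05), and its relative PFKFB3 at 32.5 and 48.3 CPM in the normoxic libraries and 99.8 and 117 CPM in the hypoxic libraries (log2FC 1.42 ± 0.18 (SE), adjusted p = 6.03e-04). PDK1, the kinase that keeps pyruvate out of the mitochondrion by inhibiting pyruvate dehydrogenase, was measured at 8.23 and 7.52 CPM in the normoxic libraries and 23.2 and 24.8 CPM in the hypoxic libraries (log2FC 1.61 ± 0.22 (SE), adjusted p = 0.00141). The hypoxic and normoxic libraries of these genes did not overlap, as in all called genes. Further members that rose were mostly enzymes of the main chain. LDHA, which turns pyruvate into lactate, had a log2FC of 1.39 and PGK1 one of 1.37, followed by ENO2 (1.03), ALDOA (0.95), PGAM1 (0.93), the glycogen branching enzyme GBE1 (0.85), PGM1 (0.76), GPI (0.64) and PFKL (0.63). Several well-known members did not pass the test, among them the glucose transporters SLC2A1 (0.14, adjusted p = 0.858) and SLC2A3 (1.05, adjusted p = 0.065), HK2 (0.58, adjusted p = 0.10), GAPDH (0.26, adjusted p = 0.38) and PKM (0.3, adjusted p = 0.297). The summed level of the 28 genes was 19904 and 18297 CPM under N and 34398 and 26825 CPM under H. With 1 library left out, 9 to 13 of the genes were called, with the length correction 18 and with DESeq2 20.

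Genes of the oxygen sensing system were called in both directions. Of 12 tested, the prolyl hydroxylases EGLN3 and EGLN1 rose and HIF1A fell, against 1.78% and 0.511% of all genes. The list median was 0.031, with 6 genes above 0 and 6 below, and these 3 calls held whichever library was left out. EGLN3 was measured at 7.32 and 8.23 CPM in the normoxic libraries and 41.7 and 32.2 CPM in the hypoxic libraries (log2FC 2.25 ± 0.2 (SE), adjusted p = 3.41e-05). EGLN1, the main HIF prolyl hydroxylase, was measured at 69.2 and 72.3 CPM in the normoxic libraries and 149 and 181 CPM in the hypoxic libraries (log2FC 1.22 ± 0.14 (SE), adjusted p = 3.40e-04). Thus the mRNAs of both enzymes were more abundant on polysomes in every hypoxic library. HIF1A had a log2FC of -1.79 ± 0.19 (SE, adjusted p = 1.07e-04), the largest decrease of any gene called. The related alpha subunit EPAS1 had 0.52, adjusted p = 0.49, VHL had 0.088, adjusted p = 0.865 and ARNT had -0.2, adjusted p = 0.505.

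Among 18 other genes that are established as hypoxia-induced, 13 rose and 0 fell, against 1.78% and 0.511% of all genes, and 17 had a positive log2FC, with a median of 1.22. The list was drawn from knowledge of hypoxia, so its direction is no discovery. Its members were also chosen with earlier results of these data known, and several are among the largest increases described above. The share of calls in this list is therefore no independent test against the share of all genes. Beside PPFIA4, NDRG1, ANKRD37, SPAG4 and TMEM45A, the called members were the transcriptional repressors BHLHE40 (1.5) and BHLHE41 (1.44), FAM162A (1.42), the MYC antagonist MXI1 (1.41), INSIG2 (1.03), NARF (1.0), the lipoprotein receptor VLDLR (0.95) and the lipid droplet protein HILPDA (0.73). WSB1 (0.34, adjusted p = 0.213), ZNF395 (0.051, adjusted p = 0.917) and KLHL24 (-0.22, adjusted p = 0.836) did not pass. The list lost most calls, from 13 to 7, when N replicate 2 was left out.

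Genes for the collagen-modifying enzymes, which need oxygen for their own reaction, made a further group. Of 13 collagen hydroxylases, lysyl oxidases and oxidative folding genes, 5 rose and 0 fell, against 1.78% and 0.511% of all genes (median 0.52), and the other fits called 3 to 7. P4HA1, the catalytic subunit of collagen prolyl 4-hydroxylase, was measured at 42.5 and 33.8 CPM in the normoxic libraries and 247 and 189 CPM in the hypoxic libraries (log2FC 2.52 ± 0.2 (SE), adjusted p = 7.59e-06), and P4HA2 at 27.7 and 22.95 CPM in the normoxic libraries and 80.4 and 61.9 CPM in the hypoxic libraries (log2FC 1.49 ± 0.17 (SE), adjusted p = 2.75e-04). LOX, which cross-links collagen, was measured at 25.2 and 31.8 CPM in the normoxic libraries and 100.3 and 89.98 CPM in the hypoxic libraries (log2FC 1.74 ± 0.16 (SE), adjusted p = 3.41e-05). PLOD2, a lysyl hydroxylase, had log2FC 1.83 ± 0.25 (SE), adjusted p = 0.00136, and its call was lost without N replicate 2, which left 3 calls in the list, whereas PLOD1 had 0.85. In contrast, PLOD3 (-0.084), LOXL1 (-0.16) and LOXL3 (-0.074) lay below 0 and were not called. The secreted matrix protease MMP1 was the single call among 16 metalloproteinase, TIMP and plasminogen genes, at 317 and 349 CPM in the normoxic libraries and 709 and 638 CPM in the hypoxic libraries (log2FC 1.02 ± 0.18 (SE), adjusted p = 0.00848), and it was lost without either normoxic library.

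Of 16 angiogenic and secreted stress factors tested, 4 rose, against 1.78% of all genes, and all 16 had a positive log2FC (median 0.66). Beside ANGPTL4 these were the ephrin EFNA3 (log2FC 1.8 ± 0.29), the peptide hormone apelin APLN (log2FC 1.09 ± 0.18) and the vasoconstrictor endothelin EDN1 (log2FC 0.83 ± 0.13). APLN was measured at 6.36 and 7.46 CPM in the normoxic libraries and 14.5 and 15.1 CPM in the hypoxic libraries. EDN1 was measured at 51.5 and 48.4 CPM in the normoxic libraries and 91.0 and 87.1 CPM in the hypoxic libraries. In both genes the groups lay well apart, and the calls of EFNA3 and EDN1 were lost without N replicate 2, which left 2 calls in the list. DESeq2 called 6 members and the fit with no filter beyond 1 read 10. VEGFA, the best known of the group, did not pass (0.53, adjusted p = 0.0734), and neither did ADM (0.59, adjusted p = 0.286). In acid handling, 2 of 8 genes rose, against the same 1.78% of all genes. These were CA9 and the lactate exporter SLC16A3, the latter at 572 and 484 CPM in the normoxic libraries and 1084 and 773 CPM in the hypoxic libraries (log2FC 0.81 ± 0.16 (SE), adjusted p = 0.0179), whose call was lost without N replicate 2 or H replicate 1. CA12, the close relative of CA9, had -0.56, adjusted p = 0.391.

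In some lists only 1 or 2 genes were called, to be read against the 1.78% of all genes called up. Of 11 mitophagy receptors and mTORC1 brakes, BNIP3 and its homologue BNIP3L rose. BNIP3L was measured at 228 and 173 CPM in the normoxic libraries and 406 and 346 CPM in the hypoxic libraries (log2FC 0.91 ± 0.19 (SE), adjusted p = 0.0218), and the call was lost without N replicate 2, H replicate 1 or H replicate 2. The mTORC1 inhibitors DDIT4 (0.41, adjusted p = 0.824) and SESN2 (-0.75, adjusted p = 0.0626) were not called. Among 19 lysine demethylases, which depend on oxygen as the EGLN enzymes do, KDM3A rose from 29.1 and 25.7 CPM to 82.1 and 105.5 CPM (log2FC 1.78 ± 0.18 (SE), adjusted p = 7.73e-05) and KDM6B had log2FC 1.22 ± 0.28 (SE), adjusted p = 0.0344, a call lost without N replicate 1, N replicate 2 or H replicate 2. Of 16 circadian clock genes, RORA (2.56) and CIART (2.27) rose, and CIART was lost without N replicate 2 or H replicate 1. Single members of other lists were called, the Notch ligand JAG2 (1.3), the metallothionein MT1X (0.88) and the growth factor TGFB1 (0.61). All 3 lost their call in at least 3 of the 4 fits that left out a library. Among 36 replication-dependent histone genes, HIST1H2BD (log2FC 1.66 ± 0.29 (SE), adjusted p = 0.00642) and HIST1H2AC (log2FC 1.22 ± 0.24 (SE), adjusted p = 0.0152) rose, and the list median was 0.44, or 0.143 with the length correction, under which HIST1H2AC lost its call. These mRNAs mostly lack a poly(A) tail and the libraries were made from poly(A) RNA. The summed level of the list was 171 and 161 CPM under N and 318 and 202 CPM under H, so that H replicate 1 stood apart from its partner. HIST1H2BD lost its call without N replicate 2, and HIST1H2AC without N replicate 1, N replicate 2 or H replicate 1.

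The 12 largest decreases ranged from a log2FC of -1.79 to one of -1.05. After HIF1A came CYP1B1, a cytochrome P450 under control of the aryl hydrocarbon receptor, which uses the same partner ARNT as HIF. It was measured at 306 and 299.8 CPM in the normoxic libraries and 107.05 and 99.1 CPM in the hypoxic libraries (log2FC -1.56 ± 0.27 (SE), adjusted p = 0.00694). CYP1A1, a second gene under the same receptor, was measured at 82.9 and 62.2 CPM in the normoxic libraries and 36.6 and 36.8 CPM in the hypoxic libraries (log2FC -0.98 ± 0.2 (SE), adjusted p = 0.0196) and was chosen after its values were seen. No list of the targets of this receptor was counted, so that these 2 genes say nothing of its targets as a group. VIPR1, the receptor for vasoactive intestinal peptide, was measured at 123 and 115 CPM in the normoxic libraries and 42.9 and 52.03 CPM in the hypoxic libraries (log2FC -1.33 ± 0.14 (SE), adjusted p = 1.24e-04). The groups did not overlap in these genes, as in all called genes, and this was a condition for the 12 largest decreases. CIRBP, a cold-inducible RNA-binding protein, was measured at 272 and 204 CPM in the normoxic libraries and 129.9 and 100.2 CPM in the hypoxic libraries (log2FC -1.05 ± 0.16 (SE), adjusted p = 0.00387). SFXN2, a mitochondrial sideroflexin, was measured at 19.2 and 21.9 CPM in the normoxic libraries and 8.88 and 9.41 CPM in the hypoxic libraries (log2FC -1.17 ± 0.18 (SE), adjusted p = 0.00381). The other 7 of the 12 largest decreases were the homeobox gene LHX4 (-1.51), CD22 (-1.43), the pro-apoptotic BMF (-1.37), the collagen gene COL9A2 (-1.24), PXK (-1.11), LACC1 (-1.09) and ZNF608 (-1.08). Of the 12, HIF1A, VIPR1 and SFXN2 stayed past the threshold in all 17 other fits. CYP1B1, LHX4 and PXK lost their call whichever library was left out, COL9A2 in 3 of these 4 fits and CD22, BMF, LACC1, ZNF608 and CIRBP in 2 of them.

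The machinery of DNA replication held 7 of the 69 downregulated genes. Of 43 genes tested, 0 rose and 7 fell, against 1.78% and 0.511% of all genes, 42 had a log2FC below 0, and the median was -0.39 in polysomes and -0.24 in total mRNA. The 7 were the helicase subunits MCM3, MCM5 and MCM6, the origin recognition subunit ORC1, the primase PRIM1, the ligase LIG1 and the ribonucleotide reductase subunit RRM1. MCM3 was measured at 423 and 402 CPM in the normoxic libraries and 264 and 247 CPM in the hypoxic libraries (log2FC -0.69 ± 0.12 (SE), adjusted p = 0.00627). PRIM1 was measured at 50.1 and 44.4 CPM in the normoxic libraries and 31.4 and 23.6 CPM in the hypoxic libraries (log2FC -0.78 ± 0.18 (SE), adjusted p = 0.0321). Both lay lower in each hypoxic library. In 34 of the 43 genes both hypoxic libraries were below both normoxic ones, against 20.5% of all genes tested. The 43 genes summed to 7652 and 7895 CPM under N and to 6479 and 6050.0 CPM under H. The individual calls were fragile, with 1 or 2 genes of the list called when any library was omitted, 0 with only the 4 polysomal libraries in the fit and 14 with the length correction or DESeq2, whereas the list median stayed between -0.42 and -0.32 over all 17 other fits. Mitotic kinases, cyclins and spindle genes (27 tested) had 0 calls and a median of -0.2, with 26 of them below 0. Fewer cells in S phase and less mRNA per cell cannot be told apart in bulk RNA.

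The lists of ribosome biogenesis factors, aminoacyl-tRNA synthetases, cytosolic ribosomal proteins and other TOP mRNAs had medians below 0 and 2 calls in all. Of all genes tested, 1.78% were called up and 0.511% down, so that the number of calls in this fit does not set these lists apart. Both hypoxic libraries lay below both normoxic ones in 17 of 20 aminoacyl-tRNA synthetases and 16 of 24 ribosome biogenesis genes. The same held for 10 of 24 other TOP mRNAs and 7 of 79 ribosomal protein genes, against 20.5% of all genes tested. A log2FC below 0 was found in 19 of the synthetases, 21 of the other TOP mRNAs and 56 of the ribosomal protein genes. Of 24 ribosome biogenesis genes 0 were called (median -0.32, 22 below 0), and of 20 aminoacyl-tRNA synthetases only FARSB fell, at 83.5 and 87.1 CPM in the normoxic libraries and 48.6 and 48.6 CPM in the hypoxic libraries (log2FC -0.81 ± 0.13 (SE), adjusted p = 0.00436), with a list median of -0.23. FARSB kept its call in all 17 other fits. Among 79 cytosolic ribosomal protein genes the median was -0.11, between -0.28 and 0.054 over the other fits, and the 1 call was upward, RPS21, at 244 and 297 CPM in the normoxic libraries and 514 and 466 CPM in the hypoxic libraries (log2FC 0.86 ± 0.19 (SE), adjusted p = 0.0344), which was lost whichever library was left out. The 24 elongation factors and other TOP mRNAs had 0 calls and a median of -0.24. With the length correction, 11 ribosomal protein genes, 3 ribosome biogenesis genes, 3 synthetases and 2 of the other TOP mRNAs were called, and DESeq2 called 2, 2, 4 and 1. The abundance of the ribosomal protein mRNAs among all counts was 10.2% and 9.11% under N and 9.54% and 8.22% under H.

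The same polysomal N libraries also serve as the control for PP242, and the values are set side by side for that reason alone. The share of ribosomal protein mRNAs was 4.14% and 4.47% under NPP and 2.80% and 2.94% under HPP. The median log2FC of the 79 genes against N was -1.32 under NPP and -1.96 under HPP, beside -0.11 under H. For the glycolysis list these medians were -0.029, 0.75 and 0.63, and for DNA replication -0.12, -0.48 and -0.39. The share of ribosomal protein mRNAs in the H libraries overlapped that in the N libraries, and in all 4 libraries with PP242 it was lower.

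**Figure D2:**
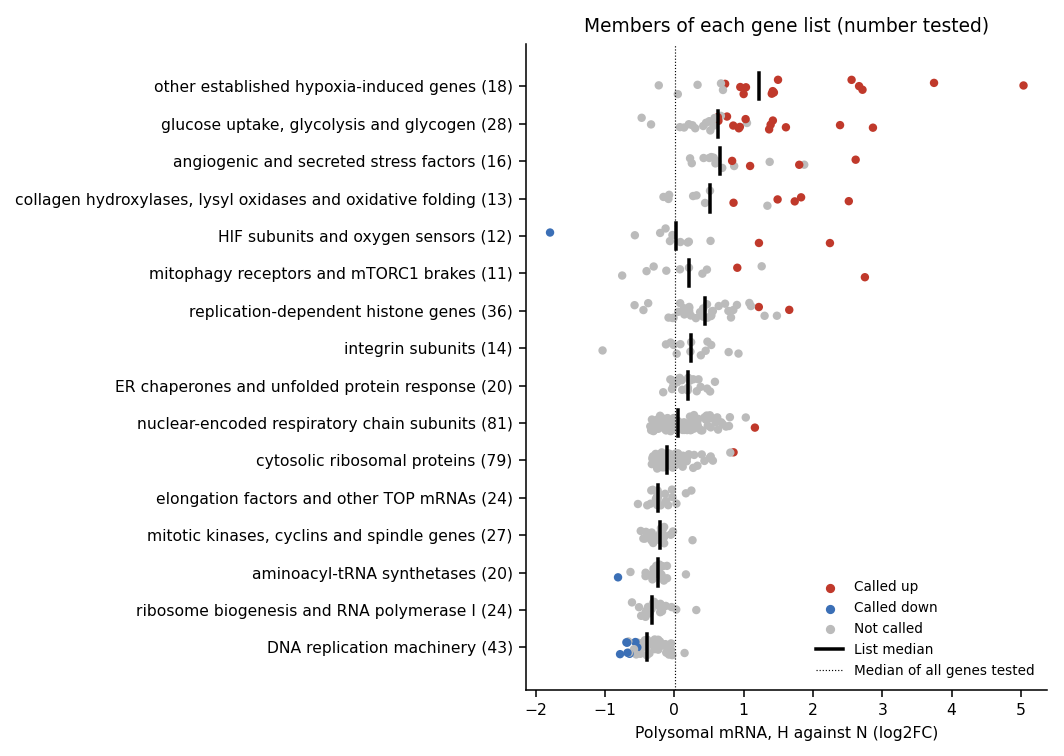
Polysomal log2FC (H against N) of each member of 16 gene lists, with the number tested in brackets. Red and blue points passed the test upwards and downwards, grey points did not, black bars are list medians and the dotted line is the median of all genes tested; hypoxia-induced and glycolysis genes extend to the right, and 42 of 43 DNA replication genes lie left of 0.

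Other groups showed few or no calls, to be read against the 1.78% of all genes called up and the 0.511% called down. At these shares, 0 calls do not set a short list apart from other genes. Of 14 integrin subunits 0 were called, with a median of 0.24 and ITGB1 at 1353 and 1266 CPM under N and 1474 and 1209 CPM under H (log2FC 0.035). ER chaperones and unfolded protein response genes (20 tested, median 0.2), ATF4 targets and mRNAs with upstream reading frames (15 tested, median -0.15), mitochondrial ribosomal proteins (77 tested, median -0.11), translation initiation factors of the eIF4F complex and its 4E-BP inhibitors (12 tested, median 0.038, from -0.043 to 0.08 over the other fits), sterol and fatty acid synthesis (21 tested, median -0.11) and inflammatory cytokines (17 tested, median -0.02) had 0 calls each in the reported fit. With the length correction, the replicate block and DESeq2, 3, 2 and 3 of the ATF4 and upstream-frame genes were called. For the mitochondrial ribosomal proteins these counts were 4, 3 and 3, and the other lists named here had 0 to 2 calls in these fits. The cytokine IL11 was uneven between the normoxic libraries, at 538 and 62.02 CPM, and no change could be detected (-0.78, adjusted p = 0.751). ERK feedback and immediate early genes (21 tested, median 0.021) and the 13 mRNAs of the mitochondrial genome (median -0.11) had 0 calls as well. Among 81 nuclear-encoded respiratory chain subunits 1 rose, against 1.78% of all genes, so that this count does not set the list apart. It was ATP5E, the epsilon subunit of ATP synthase, at 106.4 and 87.6 CPM in the normoxic libraries and 223 and 211 CPM in the hypoxic libraries (polysomal log2FC 1.16 ± 0.22 (SE), adjusted p = 0.0124), with a total log2FC of 0.2. Its call was lost without N replicate 2, and the other fits called between 0 and 9 members of the list, with 4 called under the length correction, 4 under the replicate block and 4 by DESeq2. Epithelial and mesenchymal markers had TGFB1 as their only call among 19 genes.

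Of the genes reported here that the study examined by immunoblot, CA9 was called in polysomes. MMP3, a matrix protease, was measured at 0.392 and 0.42 CPM in the normoxic libraries and 1.18 and 1.11 CPM in the hypoxic libraries (log2FC 1.48 ± 0.4 (SE), adjusted p = 0.0668) and CCDC103 at 0.523 and 0.517 CPM in the normoxic libraries and 1.26 and 1.14 CPM in the hypoxic libraries (log2FC 1.2 ± 0.33 (SE), adjusted p = 0.0761). ITGB3, an integrin subunit, was measured at 1.18 and 1.97 CPM in the normoxic libraries and 2.48 and 3.01 CPM in the hypoxic libraries (log2FC 0.78, adjusted p = 0.244). In MMP3, CCDC103 and ITGB3 both hypoxic libraries were above both normoxic ones, as in 22.6% of all genes, but none of the 3 passed the adjusted threshold. The study chose its blotted candidates for translational change under HPP and measured protein, whereas these values are polysomal mRNA under H. Under HPP against N, MMP3 (2.05, adjusted p = 0.00238), CCDC103 (1.68, adjusted p = 0.00277) and ITGB3 (1.32, adjusted p = 0.0124) passed. TTC30B did not (0.81, adjusted p = 0.192), and RPL11 (-1.88), YBX1 (-1.74) and EIF3G (-0.86) passed downwards. In other fits MMP3 passed with no filter beyond 1 read (adjusted p = 0.0306), and EIF3G passed downwards with the length correction (adjusted p = 0.0321). Of all blotted genes, 3 were called with the length correction, 2 with the replicate number as a block and 2 with DESeq2, against 1 in the reported fit. In YBX1 and EIF3G both hypoxic libraries were below both normoxic ones, as in 20.5% of all genes. TTC30B had 0.52, adjusted p = 0.577, RPL11 -0.14, adjusted p = 0.761, YBX1 -0.2, adjusted p = 0.545 and EIF3G -0.31, adjusted p = 0.313.

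The polysomal change was next set against the change in total mRNA, which comes from separate libraries of the same line. The titles of the total and polysomal libraries carry the same numbers, so both fractions appear to come from the same cultures, and a change seen in both is not one seen in independent cultures. In total mRNA 132 genes rose and 39 fell (1.27% of those tested). Of the 241 genes upregulated in polysomes, 43.6% were also called up in total mRNA and 239 had a positive log2FC there. Of the 132 genes upregulated in total mRNA, 79.5% were called up in polysomes. Of the 69 downregulated genes 25 were called down in total mRNA (36.2%) and all 69 had a negative log2FC. Over 11867 genes with a mean of at least 1 CPM, the log2FC values of both fractions correlated across genes with r = 0.759, and over all 13510 genes tested with r = 0.368 (Spearman's rho 0.642), where genes are not independent replicates. PPFIA4 had 5.04 in polysomes and 3.71 in total mRNA, CA9 5.62 and 5.46, NDRG1 3.75 and 3.75, and HIF1A -1.79 and -1.58. NDRG1 and HIF1A thus had nearly equal values in both fractions, whereas PPFIA4 had the higher value in polysomes.

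**Figure D3:**
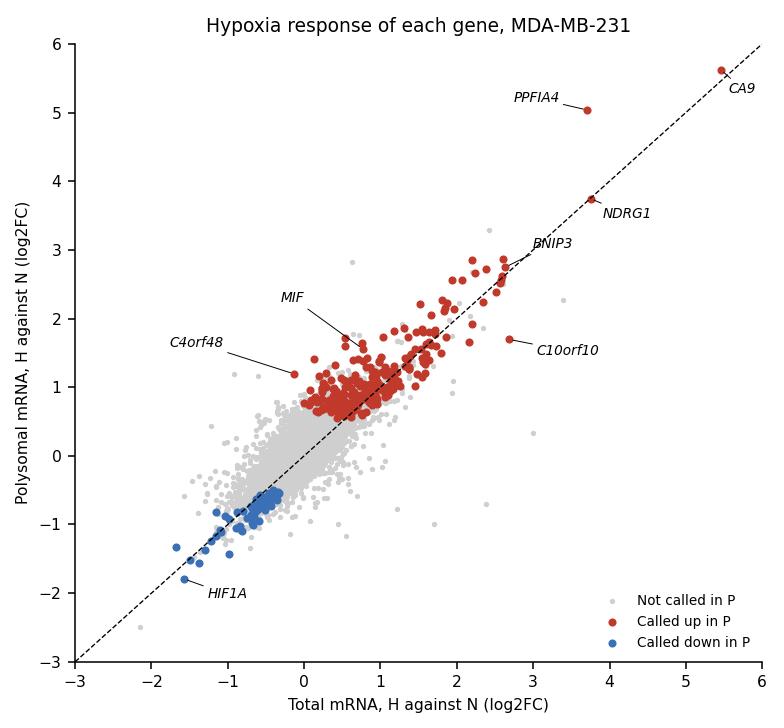
Log2FC of each gene with a mean of at least 1 CPM in total mRNA (horizontal axis) and polysomal mRNA (vertical axis), H against N. Red and blue points were called in polysomal mRNA and the dashed line marks equal change; 5 of the 11867 genes lie outside the axes, and most called genes follow the line, with PPFIA4 above it and C10orf10 below it.

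Translational efficiency (Te), the polysomal log2FC minus the total log2FC, was tested directly as an interaction. Te was called for 2 of 13510 genes (0.0148%), and 180 genes had an unadjusted p under 0.05. With the culture as a block, 1 gene was called in each direction and 293 had an unadjusted p under 0.05. In both called genes the total mRNA differed between H and N by more than the polysomal mRNA. NDUFC2-KCTD14, a readthrough gene that shares exons with its neighbours, had 0 counts in both normoxic total libraries and 2.47 and 2.96 CPM in the hypoxic ones, at least 19.5-fold higher than 3 counts per library, whereas polysomes held 2.66 and 2.71 CPM under N and 4.5 and 4.87 CPM under H (adjusted p of the Te test 0.0126). FAM156B, which has a near-identical copy, was listed in total mRNA at 6.56 and 8.87 CPM under N and at 0.326 and 0.0911 CPM under H, while polysomes held 4.7 and 8.07 CPM under N and 9.41 and 6.9 CPM under H (adjusted p of the Te test 0.0348). Read assignment by RSEM between such overlapping or duplicated sequences is uncertain, and both calls are given with that reserve. Of the 8 fits that left out 1 library, 7 had no upward call and 4 no downward call. An upward call was made only without total N replicate 1, and no downward call was made without total N replicate 1, total N replicate 2, polysomal H replicate 1 or polysomal H replicate 2. A rule adapted from the study, a z-score beyond 1.5 of Te as the difference of the log2FC values among genes called in polysomes at an adjusted p under 0.05, chose 9 genes upwards and 2 downwards, without a test of Te. At an adjusted p under 0.10, the threshold in the methods, it chose 16 and 4. Of the 9, 4 had a mean below 1 CPM and 6 had an unadjusted Te p under 0.05. The group included PPFIA4 (Te 1.33, unadjusted p = 0.0319) and C4orf48 (Te 1.32, unadjusted p = 0.00187). Left-out libraries changed its size to between 0 and 5 upwards and between 0 and 3 downwards. Of the blotted genes given above, ITGB3 had a Te of 1.15 (unadjusted p = 0.0294), with a total log2FC of -0.37. CCDC103 had a Te of 1.27 (unadjusted p = 0.0196), TTC30B 0.98 (unadjusted p = 0.122) and MMP3 0.71 (unadjusted p = 0.236). None of these passed the adjusted threshold of the Te test.

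Among short mRNAs the share of increases was above that of all genes, but not when N replicate 2 was left out (0.351% against 0.356%). Genes were split into 10 groups of nearly equal size by the length of their canonical transcript (GENCODE v44). In the shortest group (1345 genes of up to 1264 nt) 52 were called up (3.87%, against 1.78% of all genes) and 0 down, and the median log2FC was 0.149 in polysomes and 0.0576 in total mRNA. In the longest group (from 7730 nt) 11 were called up and 2 down, with a median of 0.0086. The 52 genes had a median of 1.09 in polysomes and 0.529 in total mRNA, 14 of them were called up in total mRNA and 48 had a positive Te. Of all 241 upregulated genes 182 had a positive Te, and genes chosen for a high polysomal value tend by construction to have one. They included MIF, a cytokine and HIF target, at 263 and 198 CPM in the normoxic libraries and 721 and 636 CPM in the hypoxic libraries (log2FC 1.56 ± 0.2 (SE), adjusted p = 9.02e-04). ROMO1, a mitochondrial membrane protein, was measured at 46.3 and 44.9 CPM in the normoxic libraries and 100.1 and 109.95 CPM in the hypoxic libraries (polysomal log2FC 1.2 ± 0.2 (SE), adjusted p = 0.00566), with a total log2FC of 0.29. TOMM7, part of the mitochondrial import pore, had 0.95 in polysomes and 0.077 in total mRNA, and C4orf48, a small secreted peptide, 1.19 and -0.13. MIF, ROMO1, TOMM7 and C4orf48 were chosen after their values were seen.

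Transcript length also separated the normoxic replicates. Relative to the mean of the normoxic polysomes, the shortest group had a median of 0.135 in N replicate 1 and -0.135 in N replicate 2, against 0.169 in H replicate 1 and 0.107 in H replicate 2. N replicate 1 therefore lay between the hypoxic libraries. From the second to the longest group the median went from 0.0971 to -0.0792 in N replicate 1 and from 0.0603 to -0.0495 in H replicate 1, and from -0.0971 to 0.0792 in N replicate 2 and from -0.0534 to 0.0599 in H replicate 2. Without N replicate 2 the shortest group held 5 upregulated genes in place of 52, without N replicate 1 it held 28, without H replicate 1 43 and without H replicate 2 25. As shares of the group these were 0.351%, 1.97%, 3.05% and 1.76%, against 0.356%, 0.809%, 1.64% and 0.802% of all genes in the same fits. With a smooth length correction in each library it held 46, and the total was then 296 up and 270 down.

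**Figure D4:**
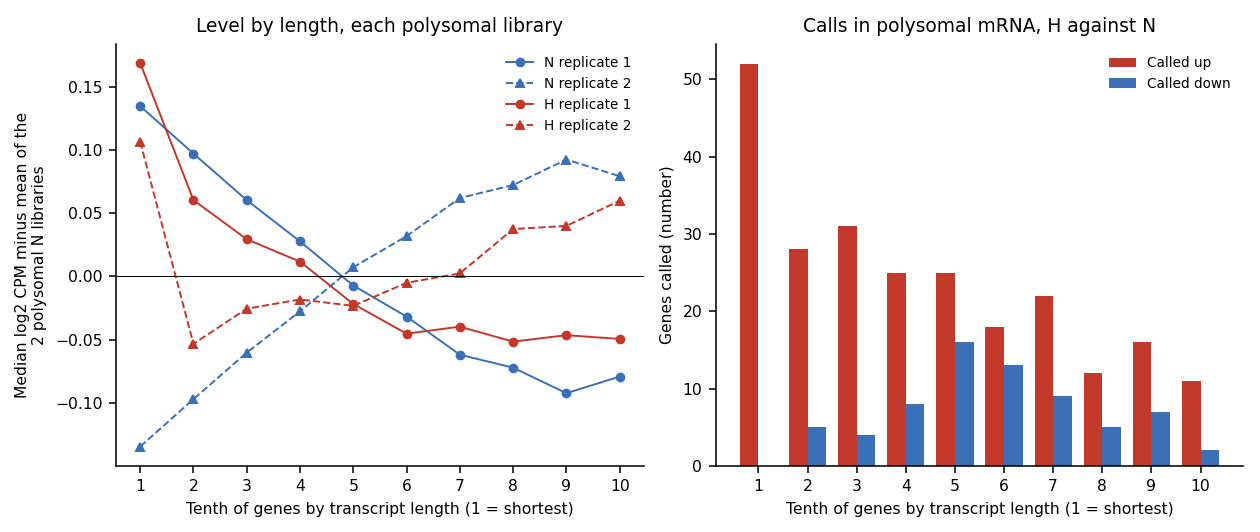
Left, median log2 CPM of each polysomal library minus the mean of the 2 normoxic ones in 10 groups of genes by transcript length (1 = shortest). Right, number of genes called up or down in each group; the 2 normoxic libraries lie 0.135 above and below 0 in the shortest group, where 52 genes were called up and 0 down.

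Finally, the response was compared with that of MCF10A, in which 1.49% of 13124 genes were called in polysomes, 174 upwards and 21 downwards. Among 222 genes upregulated in MDA-MB-231 and tested in both lines, 52 were called up in MCF10A as well (23.4%), which is 34.4% of the 151 called up in MCF10A. Of 66 downregulated genes 1 was shared, and none was called in opposite directions. The difference between the responses was tested across all 32 libraries and was called for 47 of 14298 genes (0.329%), 39 of them with the lower and 8 with the higher response in MDA-MB-231. HIF1A did not pass this test, at -1.80 in MDA-MB-231 and 0.072 in MCF10A in the joint fit (difference -1.87 ± 0.53, adjusted p = 0.207). CA9 had 5.62 and 5.98, each in its own fit. The medium of MCF10A also held EGF, hydrocortisone, cholera toxin and insulin, so that line and medium cannot be told apart in this comparison.

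In the joint fit all 39 genes with the lower response were called in MCF10A, and 4 of them were also called in MDA-MB-231. The fit of MDA-MB-231 alone called further members up, among them VLDLR (adjusted p = 0.00387), APLN (adjusted p = 0.00467), BNIP3L (adjusted p = 0.0218) and C10orf10 (adjusted p = 0.0344). EGLN3 rose in both lines but by less in MDA-MB-231 (difference -4.42 ± 0.48, adjusted p = 1.27e-04), where it stood (CPM scaled over the 32 libraries) at 6.46 and 7.23 CPM in normoxia against 0.338 and 0.157 CPM in MCF10A. Hypoxic levels were 36.8 and 28.04 CPM against 21.9 and 25.9 CPM. The normoxic levels of the lines were thus further apart than the hypoxic ones. CA12 reached 182 and 275 CPM in hypoxic MCF10A and stayed at 5.48 and 5.24 CPM in hypoxic MDA-MB-231 (difference -4.14 ± 0.5, adjusted p = 2.09e-04). SPRY1, an inhibitor of growth factor signalling, had a log2FC of -0.23 in MDA-MB-231 and 5.04 in MCF10A, VLDLR 0.94 and 4.67, C10orf10 1.69 and 6.98, and SLC37A2 -0.45 and 2.32. Of the 8 genes with the higher response, 7 were called down in MCF10A and were not called in MDA-MB-231 in the joint fit. In the fit of MCF10A alone LYPD1 (adjusted p = 0.0724) and TMCC2 (adjusted p = 0.0931) did not pass. The exception was DNAH11, one of the 12 largest increases, with 2.84 in MDA-MB-231 and 0.45 in MCF10A (difference 2.40 ± 0.52, adjusted p = 0.0499). The chemokine CXCL8 had 0.96 against -2.09 (difference 3.05 ± 0.6, adjusted p = 0.0251), LYPD1 0.45 against -4.0, TINAGL1 0.48 against -2.15, FAM213A 0.21 against -2.08, TMEM156 0.054 against -1.99, TMCC2 0.88 against -1.26 and WWC1, added after its values were seen, 0.22 against -1.23. Leaving out any 1 of the 8 libraries left 1 to 5 genes with the higher response. The genes with the lower response were 13 without N replicate 1 of MDA-MB-231, 25 without its N replicate 2, 19 without its H replicate 1 and 11 without its H replicate 2, and they were 16 without N replicate 1 and 17 without H replicate 2 of MCF10A.

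**Figure D5:**
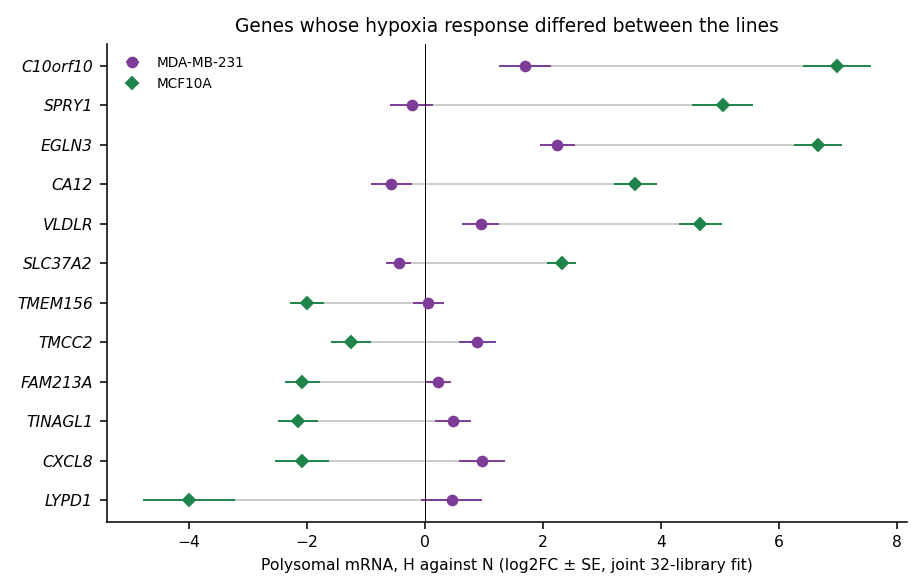
Polysomal log2FC (H against N, ± SE, joint 32-library fit) in MDA-MB-231 (circles) and MCF10A (diamonds) for the 6 genes with the lowest p in each direction of the line difference. In the upper 6 genes the MCF10A value is the larger, and in the lower 6 MCF10A lies below 0 while MDA-MB-231 lies at or above it.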

How the data were processed

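The deposited expected counts per gene were made by the authors from poly(A)-selected, paired-end 2×76 reads (STAR v2.5.1b, RSEM v1.2.28, GENCODE v24 on GRCh38 in the study's methods, whereas the submitters' processing notes list GRCh37; the versions of the gene identifiers are those of GRCh38). They are whole numbers. Protein-coding genes of the 16 MDA-MB-231 libraries (18340916 to 39536845 counts) were filtered with filterByExpr, scaled with TMM and fitted in 8 groups (edgeR 4.0.16, quasi-likelihood F test, Benjamini-Hochberg over all genes tested, adjusted p under 0.05 called). CPM are TMM-scaled over the libraries of their fit, except in the marker check. Differences in total mRNA, Te and between lines were contrasts of the same kind of fit, the last over 32 libraries. The scripts were tested on simulated data.

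Named genes were the 12 called genes with the largest increase and the 12 with the largest decrease (non-overlapping groups, mean of at least 1 CPM), up to 4 called members of each gene list or else its member with the highest mean CPM, the genes blotted in the study, up to 6 genes in each direction for Te and the line difference, and HIF1A and CA9. Members and lists were chosen with earlier results of these data known. With 2 libraries a group, an exact permutation test of a single gene could not go below p = 0.333. Transcript lengths came from GENCODE v44, for 99.5% of genes tested. Alternatives were DESeq2 1.42.0, other scalings and filters, subsets of libraries, the replicate number as a block, thinning, a length correction and leaving out each library. Some items withheld from this text are not reported here.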

Additional observations from a re-analysis of the deposited data

Results flagged for a closer look

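The difference in the hypoxia response of polysomal mRNA between MDA-MB-231 and MCF10A (log2, MDA-MB-231 minus MCF10A, edgeR interaction over 32 libraries) was called for 47 genes, and the 12 with the lowest p in their direction were singled out by that test. It was -4.42 for EGLN3, -2.77 for SLC37A2, -4.14 for CA12, -5.27 for SPRY1, -3.72 for VLDLR and -5.28 for C10orf10. It was 2.30 for FAM213A, 2.63 for TINAGL1, 2.05 for TMEM156, 3.05 for CXCL8, 4.45 for LYPD1 and 2.14 for TMCC2. SPRY1 had 0 counts in 1 normoxic MCF10A library and LYPD1 in 1 hypoxic one, so that these differences rest on few reads. Levels in normoxic MCF10A were also low for C10orf10 (0.0751 and 0.157 CPM) and EGLN3 (0.338 and 0.157 CPM). In hypoxic MCF10A they were low for FAM213A (0.253 and 0.425 CPM).

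The polysomal and total responses differed by test for FAM156B (5.36 on the log2 scale) and for NDUFC2-KCTD14, whose total mRNA was at least 19.5-fold higher under hypoxia than the floor of 3 counts per library.

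Outside the protein-coding genes, a fit of all gene classes called 49 of 3485 further genes up and 0 down in polysomal mRNA, beside 215 of 13510 protein-coding genes up. The first by p was MIR210HG, the host transcript of the hypoxia-induced miR-210, with a log2FC of 3.47 (0.749 and 0.474 CPM under N, 7.04 and 6.28 CPM under H).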

How the results depend on the processing

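Of 56 called genes among those named, 25 stayed past the threshold in all 17 other fits of the polysomal comparison and 0 changed sign. With a library left out, 51 to 234 genes were called up and 11 to 27 down, and 62 to 159 of the 310 called genes were kept. This overlap and the shortest length group were alternatives chosen after seeing the data. Up and down counts were 393 and 259 with DESeq2, 675 and 147 with no filter beyond 1 read, 446 and 168 at an adjusted p under 0.10 and 130 and 15 at an absolute log2FC of at least 1. With only the 4 polysomal libraries they were 144 and 18 (141 genes shared), and with only the 8 polysomal libraries 203 genes were shared. The length correction gave 270 down. In total mRNA DESeq2 called 1.95% of genes tested up and 0.825% down, against 0.977% and 0.289%. Te calls were 11 up and 7 down with no filter, 0 and 0 after thinning, 0 up with the length correction, and 0 to 1 in each direction with a library left out. The z-score rule chose 48 up with a CPM filter, 16 up and 4 down at an adjusted p under 0.10, 14 up with z-scores over called genes, and 0 to 5 up and 0 to 3 down with a library left out. The line difference was called for 32 up and 96 down with DESeq2, 20 and 69 at an adjusted p under 0.10, and 1 to 5 up and 11 to 31 down with a library left out. Of the shortest length group, 3.87% of genes were called up in the reported fit, 7.45% with DESeq2, 5.85% with no filter, 6.38% with the edgeR exact test, 2.3% with all gene classes (more short genes tested) and 0.351% to 3.05% with a library left out. The cause of these shifts was not tested. The median of all genes stayed within 0.1 of 0, which the scaling of the libraries brings about. Medians of ribosomal proteins (-0.28 to 0.054), mitochondrially encoded mRNAs (-0.46 to 0.39) and inflammatory cytokines (-0.23 to 0.65) changed sign between fits, as did those of HIF subunits and oxygen sensors, eIF4F subunits, mitochondrial ribosomal proteins, respiratory chain, metalloproteinase, ERK feedback, sterol and metallothionein genes and the basal, hormone receptor and leukocyte markers.

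Replicate numbers were not established as pairs. The titles number the treatments of a replicate consecutively, so libraries of the same replicate number may have been handled together. No label states this, and the reported fit does not use it. Deviations from the group means correlated between same-numbered libraries with r from -0.187 to 0.348 over 28 pairs of groups, 19 of them over 0.1, and with 0.280 between polysomal N and H. With the replicate number as a block, 450 genes were called up and 161 down in polysomes, 1.72% and 0.711% of genes in total mRNA, and 7.73% of the shortest length group were called up. With the block within each fraction 461 genes were called up and 180 down in polysomes, and 8.62% of the shortest length group up.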

Other observations

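Among the 49 genes of other classes called up in polysomal mRNA, 17 were lincRNAs (of 845 tested) and 14 antisense RNAs (of 1092 tested). In the same fit 264 of all 16995 genes were called up (1.55%), so that these counts are near the share of all genes. LINC01116 was measured at 23.2 and 20.8 CPM under N and at 53.7 and 54.9 CPM under H (log2FC 1.30 ± 0.17, edgeR adjusted p = 0.00127). HIF1A-AS2, annotated opposite the HIF1A locus, was measured at 0.660 and 0.948 CPM under N and at 4.47 and 3.96 CPM under H (log2FC 2.36 ± 0.33, edgeR adjusted p = 0.00195), while HIF1A itself fell. The libraries do not keep the strand, so that reads of an antisense RNA and of its partner cannot be told apart where they overlap. The pseudogene LDHAP4, a near copy of LDHA, was listed at 27.5 and 17.2 CPM under N and at 67.8 and 47.1 CPM under H, and reads of LDHA may be assigned to it.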
